A study of Mus musculus with 6 samples.

Results

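Messenger RNA of 7 genes that are widely used as readouts of Hippo signalling and of its co-activator YAP (Ccn1, Ccn2, Amotl1, Amotl2, Ankrd1, Lats2 and Thbs1) was followed across 6 single-colour Agilent arrays of J1, a mouse embryonic stem cell line. All probes named for one of these genes in the scanner files were taken, including those listed as Cyr61 and Ctgf, the older symbols of Ccn1 and Ccn2. This gave 13 of the 41174 probes, and 7 of the 19370 genes kept on the arrays. The cells were grown in ESGRO medium, held in M10 medium during transfection with siRNA that was non-targeting (NT) or directed against Thoc2 or Thoc5, and sampled for total RNA 96 hours later, with 2 arrays per group. Each label names a single J1 line and no control without siRNA, so every group was transfected, and the labels give neither the siRNA sequences nor whether replicates were separate cultures. THO, to which both targets belong, loads onto new transcripts and takes part in their export, and the series title asks how it controls the export of pluripotency mRNA; total RNA gives mRNA levels and not export. The genes were chosen with their values on these arrays known, so their levels and differences are descriptions and carry no test.

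In the Hippo pathway the kinases MST1 and MST2 activate LATS1 and LATS2, which phosphorylate YAP and its relative TAZ and hold them in the cytoplasm. YAP and TAZ that escape this enter the nucleus, where they bind TEAD factors and switch on a small set of genes. Some of the targets encode proteins secreted into the matrix (Ccn1, Ccn2, Thbs1), while others feed back on the pathway: LATS2 is itself one of the kinases, and the angiomotin-like proteins AMOTL1 and AMOTL2 bind YAP at cell junctions. In mouse embryos the same factors, with Tead4, are known for setting up the trophectoderm.

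TEAD factors bind DNA at the letters GGAATG, written CATTCC on the other strand. RefSeq promoter sequences on assembly GRCm38.p6 were matched by symbol for 5 of the 7 genes (Ccn1, Amotl1, Amotl2, Ankrd1 and Lats2, the last with more than 1 start). Within the 250 bases before the start, 3 of these 5 genes held the motif on either strand, compared with 12.6% of all 32851 promoters of that length. The 3 stretches are shown 5′ to 3′ on the strand of the gene, in lower case, with every GGAATG or CATTCC in capitals, because the motif is the sequence feature these targets are known for. Ccn1 lies on the minus strand at chr3:145649986-145650235, Amotl2 on the plus strand at chr9:102717554-102717803 and Ankrd1 on the minus strand at chr19:36119845-36120094.
Ccn1: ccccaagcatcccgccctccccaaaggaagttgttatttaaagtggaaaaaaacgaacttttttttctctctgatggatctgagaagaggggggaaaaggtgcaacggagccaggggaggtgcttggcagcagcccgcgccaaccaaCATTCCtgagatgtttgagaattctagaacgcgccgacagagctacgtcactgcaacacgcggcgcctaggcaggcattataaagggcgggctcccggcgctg
Amotl2: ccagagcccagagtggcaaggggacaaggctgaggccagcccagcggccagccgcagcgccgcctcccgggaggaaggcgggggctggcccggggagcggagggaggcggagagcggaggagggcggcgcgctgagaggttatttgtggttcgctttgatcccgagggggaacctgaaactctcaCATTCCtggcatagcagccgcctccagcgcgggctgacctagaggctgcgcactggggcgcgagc
Ankrd1: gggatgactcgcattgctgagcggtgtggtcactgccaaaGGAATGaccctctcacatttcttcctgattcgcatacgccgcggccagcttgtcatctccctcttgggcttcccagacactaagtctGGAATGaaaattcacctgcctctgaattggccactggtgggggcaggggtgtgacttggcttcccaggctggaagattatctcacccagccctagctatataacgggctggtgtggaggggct
The Ccn1 motif starts 103 bases before the start of the gene and the Amotl2 motif 65 bases before it. Ankrd1 holds 2, at 210 and 123 bases. The Amotl1 window and both Lats2 windows held none in these 250 bases; widening the window to 300 bases, of which 50 lie after the start, added 1 match in Lats2, beside 14.7% of all promoters. The TATA motif TATAAA (read on both strands, with no overlap with GGAATG in its letters) was found in Ccn1 alone of the 5 genes, beside 12.4% of all promoters. The AP-1 motif TGANTCA was in none of the 5, beside 6.75% of all promoters. The CArG box bound by SRF was in none either, beside 1.47% of all. Among 11 other YAP targets with a promoter in the same table, 3 held GGAATG: Axl, Crim1 and Ptpn14. A match of letters in these windows is a description and not a measured binding site.

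A level below is the log2 processed signal of a probe minus the 75th percentile of its array. A level of 0 thus lies at that percentile, and differences are taken between arrays on the same probe. Across probes, levels serve to pick the brightest probe of a gene, to call a probe dim and to sum the signal of markers. The arrays carried 43379 non-control spots, of which 56.7% to 79.7% were well above background. The first Thoc5 siRNA array was the dimmest, with a 75th percentile of 306 intensity units against 716 to 905 on the other 5. The siRNA targets were checked first: the Thoc2 level was 0.70 and 0.33 with Thoc2 siRNA against 1.07 to 1.71 on the other 4 arrays, and the Thoc5 level was at most 0.34 with Thoc5 siRNA against 1.30 to 1.88 on the other 4. The Thoc2 difference from NT siRNA was -0.86 ± 0.28 (SE, n = 2 per group; limma adjusted p = 0.304) and the Thoc5 difference -1.27 ± 0.27 (adjusted p = 0.130), neither past the adjusted threshold of 0.05. Of the embryonic stem cell markers, 9 of 10 were measured, and their summed scaled signal, in multiples of the 75th percentile, was 801 to 1060 on all arrays. This sum came mostly from Dppa5a, the brightest of them, and says little of the dimmer markers.

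All 7 genes were higher with either siRNA than with NT siRNA, with no overlap between the arrays of the groups. For comparison, 25.7% of all genes were higher without overlap with Thoc2 siRNA and 21.7% with Thoc5 siRNA; nothing is read from this, since the genes were chosen on the same contrasts. The median log2 difference of the 7 genes from NT siRNA was 0.96 with Thoc2 siRNA and 1.56 with Thoc5 siRNA, beside 0.06 and -0.09 for all genes. A log2 difference of 1 or more was seen in 3 of the 7 with Thoc2 siRNA (10.6% of all genes) and in 5 of the 7 with Thoc5 siRNA (4.64% of all genes). Both comparisons use the same NT arrays, so they are not separate evidence of a direction. The 7 probes that stand for the genes were well above background on all 6 arrays and saturated on none. Positions of probes are on mm7, the build of the file headers.

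**Figure D1:**
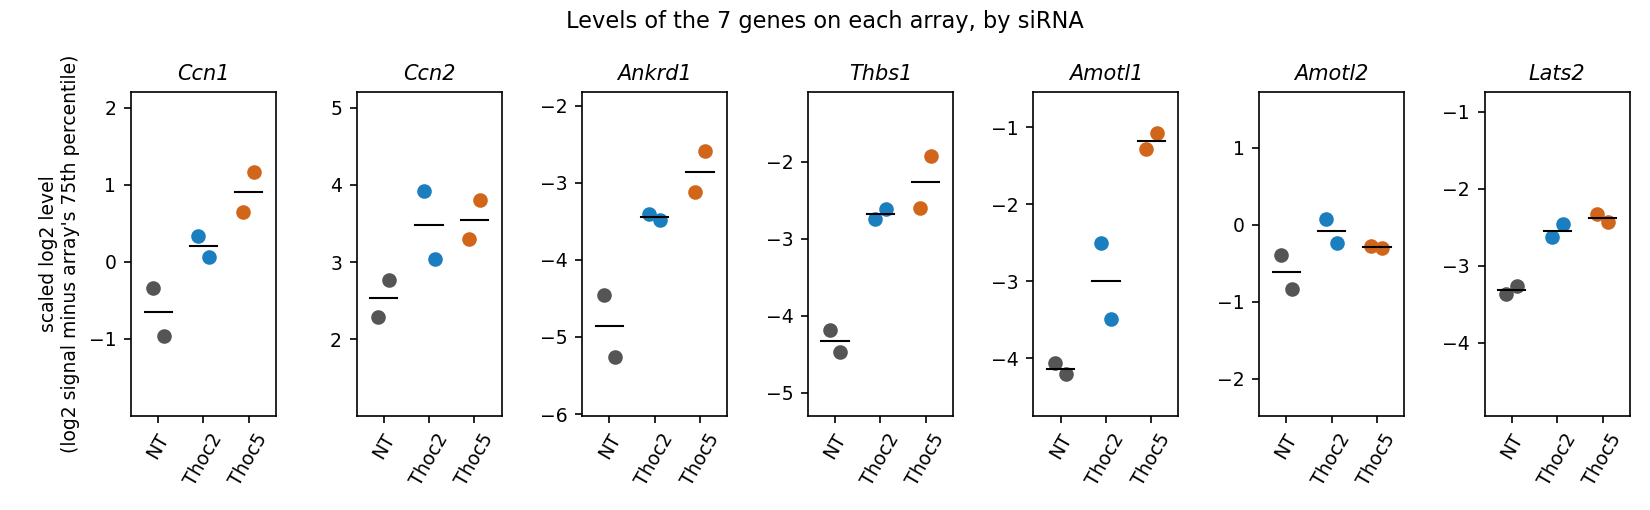
Level of each gene on each array (points; log2 signal minus the array's 75th percentile) by siRNA, with the group mean as a line and panels of equal span. In every panel both Thoc2 and both Thoc5 siRNA arrays lie above both NT arrays; Amotl1 reaches -1.28 and -1.08 with Thoc5 siRNA from -4.07 and -4.21 with NT siRNA.

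Among the secreted targets, Ccn1, a matrix protein that binds integrins, was measured by 1 probe (A_51_P252859, chr3:145544387-145544446, minus strand). Its level was -0.34 and -0.96 after NT siRNA, 0.34 and 0.07 after Thoc2 siRNA, and 0.64 and 1.17 after Thoc5 siRNA. The 3 groups thus stood in steps, each above the one before. The log2 difference from NT siRNA was 0.86 ± 0.31 (SE of the fit, n = 2 per group here and below) with Thoc2 siRNA, a fold of 1.81, and 1.56 ± 0.31 with Thoc5 siRNA, a fold of 2.95. Without NT replicate 2 the Thoc2 siRNA difference was 0.55.

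Ccn2, the connective tissue growth factor and the most used YAP readout, was measured by probe A_51_P157042 (chr10:24349402-24349461, plus strand). The Ccn2 levels were 2.29 and 2.77 after NT siRNA, 3.92 and 3.04 after Thoc2 siRNA, and 3.29 and 3.80 after Thoc5 siRNA. Both siRNA groups were above NT and interleaved with each other. The difference from NT siRNA was 0.96 ± 0.40 (fold 1.94) with Thoc2 siRNA and 1.02 ± 0.40 (fold 2.03) with Thoc5 siRNA. The Thoc2 siRNA value rested partly on replicate 1: it was 0.52 without that array and 1.39 without Thoc2 replicate 2.

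Thbs1 encodes thrombospondin 1, a secreted matrix protein that also activates TGF-beta, and the probe that stands for it is A_52_P363951 (chr2:117866887-117866946, plus strand). It read -4.19 and -4.46 after NT siRNA, -2.74 and -2.61 after Thoc2 siRNA, and -2.60 and -1.93 after Thoc5 siRNA. The NT arrays lay well apart from the rest, while the lower Thoc5 array was within 0.012 of the higher Thoc2 array. The differences from NT siRNA were 1.65 ± 0.28 (fold 3.13) with Thoc2 siRNA and 2.06 ± 0.28 (fold 4.17) with Thoc5 siRNA. With normexp background correction the Thoc5 siRNA value was 1.70. For Thoc2 siRNA the Thbs1 difference was the highest of the 7 genes with all arrays in. Ankrd1 was higher without NT replicate 1 (1.82 against 1.79) and Amotl1 without Thoc2 replicate 2 (1.63 against 1.58). The other 2 Thbs1 probes were too dim to add to this. Probe A_52_P337086 (chr2:117863442-117863501) was well above background on 1 of 6 arrays, the first Thoc2 array, and A_52_P337092 (chr2:117861824-117862004) on none, so no difference is given for them.

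Ankrd1, an ankyrin repeat cofactor that acts in the nucleus and at the sarcomere, was measured by probe A_52_P120803 (chr19:35813004-35813063, minus strand). Its level was -4.46 and -5.25 after NT siRNA, -3.40 and -3.48 after Thoc2 siRNA, and -3.12 and -2.59 after Thoc5 siRNA. As for Ccn1, the groups stood in steps with NT lowest. The NT levels were dim; on those arrays the dimmest probe well above background stood at -6.20 and -6.24. The Ankrd1 difference from NT siRNA was 1.42 ± 0.35 (fold 2.67) with Thoc2 siRNA and 2.0 ± 0.35 (fold 4.01) with Thoc5 siRNA.

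Of the feedback genes, Amotl1 differed most from NT siRNA with Thoc5 siRNA. It encodes a junction protein that binds YAP and retains it outside the nucleus. The brighter of its probes (A_51_P454634, chr9:14382482-14382541, minus strand) read -4.07 and -4.21 after NT siRNA, -2.50 and -3.49 after Thoc2 siRNA, and -1.28 and -1.08 after Thoc5 siRNA. The NT and Thoc5 arrays were tight, and the Thoc2 arrays lay between them and wide apart. The difference was 1.14 ± 0.36 (fold 2.21) with Thoc2 siRNA and 2.95 ± 0.36 (fold 7.75) with Thoc5 siRNA, the largest of the 7. The NT levels were dim, at 49 intensity units on both arrays. The Thoc5 siRNA value was 2.36 with normexp background correction and 2.43 with the mean over kept probes. The Thoc2 siRNA value was 0.65 without Thoc2 replicate 1 and 1.63 without Thoc2 replicate 2.

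The second Amotl1 probe (A_51_P210708, chr9:14376427-14376460) lies 6.055 kb nearer the 3′ end. On it the levels were -4.35 and -4.78 after NT siRNA, -4.13 and -4.60 after Thoc2 siRNA, and -2.23 and -3.08 after Thoc5 siRNA. The Thoc2 arrays overlapped the NT arrays on this probe, and the Thoc5 arrays stayed above both. The differences from NT siRNA were 0.19 and 1.90, so the probes differed in size for both siRNAs and in the separation of Thoc2 siRNA from NT. Their difference between Thoc5 and Thoc2 siRNA was close, at 1.81 on the brighter probe and 1.71 on the second.

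Amotl2, the other angiomotin-like protein of the set, had 1 probe (A_51_P348804, chr9:102424871-102424931, plus strand) and the smallest differences. Its level was -0.40 and -0.84 after NT siRNA, 0.08 and -0.24 after Thoc2 siRNA, and -0.28 and -0.30 after Thoc5 siRNA. The groups did not overlap, but the NT arrays were about as far apart as the groups. The Amotl2 difference was 0.53 ± 0.22 (fold 1.45) with Thoc2 siRNA and 0.32 ± 0.22 (fold 1.25) with Thoc5 siRNA. Without NT replicate 2 these were 0.31 and 0.10, and without NT replicate 1 they were 0.75 and 0.54.

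Lats2, the kinase that phosphorylates YAP and is itself a YAP target, was measured by 4 probes. The brightest (A_52_P315345, chr14:52557891-52557950, minus strand) read -3.37 and -3.26 after NT siRNA, -2.62 and -2.46 after Thoc2 siRNA, and -2.32 and -2.44 after Thoc5 siRNA. Arrays of a group lay close together and both siRNA groups were above NT. The difference was 0.77 ± 0.15 (fold 1.71) with Thoc2 siRNA and 0.93 ± 0.15 (fold 1.91) with Thoc5 siRNA, the smallest SE of the 7 genes.

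The other Lats2 probes did not all follow it. A_51_P331525 (chr14:52557919-52557978), which overlaps the brightest probe, gave 0.78 and 0.88 for Thoc2 and Thoc5 siRNA. A_51_P133349 (chr14:52559057-52559116), 1.17 kb further upstream, read -5.06 and -5.10 after NT siRNA, -3.71 and -4.43 after Thoc2 siRNA, and -3.16 and -3.28 after Thoc5 siRNA, which makes differences of 1.01 and 1.86. On this probe the Thoc5 arrays were clear of the Thoc2 arrays. A_52_P425064 (chr14:52590323-52590382), 32.4 kb upstream and annotated to a separate splice form in the files, read -3.70 and -4.19 after NT siRNA, -3.88 and -3.18 after Thoc2 siRNA, and -3.43 and -3.79 after Thoc5 siRNA. Its groups overlapped, with differences of 0.42 and 0.34, so 3 of the 4 Lats2 probes were above NT without overlap and 1 was not.

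**Figure D2:**
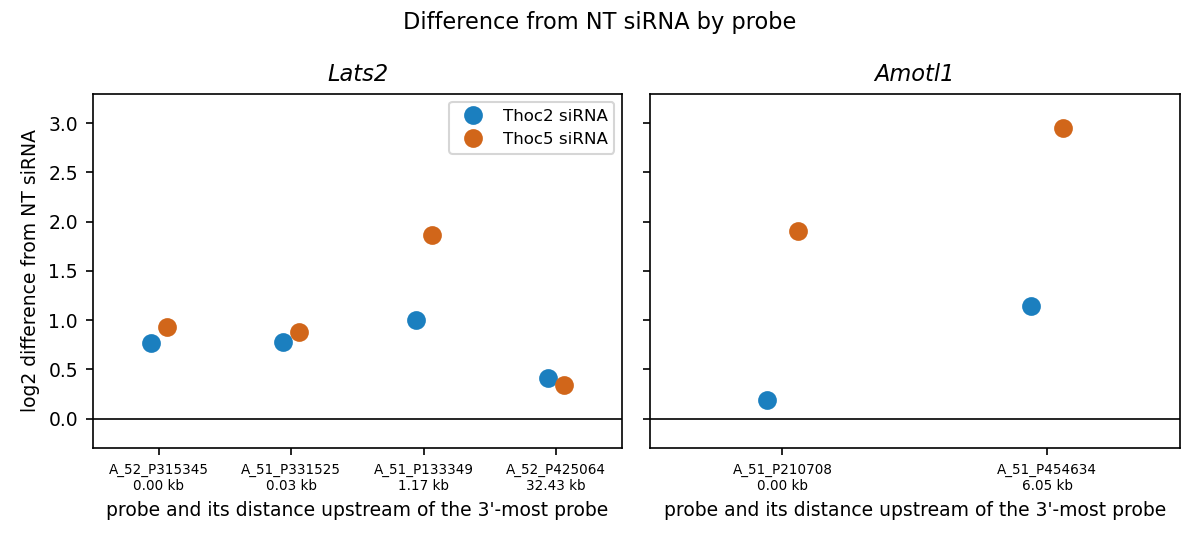
Log2 difference from NT siRNA (y axis) for each kept probe of Lats2 and Amotl1, ordered by distance in kb upstream of the probe nearest the 3′ end, for Thoc2 and Thoc5 siRNA (points, 2 arrays per group). Among the Lats2 probes the far one shows the smallest differences, 0.42 and 0.34; the Amotl1 probes stand at 0.19 and 1.14 for Thoc2 siRNA and at 1.90 and 2.95 for Thoc5 siRNA.

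The first arrays of Thoc2 and Thoc5 siRNA were each on a slide of their own, whereas NT replicate 1 shared a slide with Thoc2 replicate 2, and NT replicate 2 with Thoc5 replicate 2. Within these shared slides each group has 1 array and no error can be given. All 7 genes were above NT there, which had to be so, since no siRNA array overlapped the NT arrays. For Thoc2 siRNA the within-slide difference was 0.41 for Ccn1, 0.15 for Amotl2, 0.58 for Amotl1 and 0.98 for Ankrd1, less than the 0.86, 0.53, 1.14 and 1.42 over all arrays. Ccn2 (0.75), Thbs1 (1.57) and Lats2 (0.90) stood nearer their values over all arrays. For Thoc5 siRNA the within-slide difference was 2.13 for Ccn1, 2.66 for Ankrd1, 2.54 for Thbs1 and 3.12 for Amotl1, above the values over all arrays. Ccn2 (1.03) and Lats2 (0.82) were close to theirs, and Amotl2 (0.53) was above. With slide as a random block in limma, the median of the 7 genes was 0.95 with Thoc2 siRNA and 1.63 with Thoc5 siRNA.

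**Figure D3:**
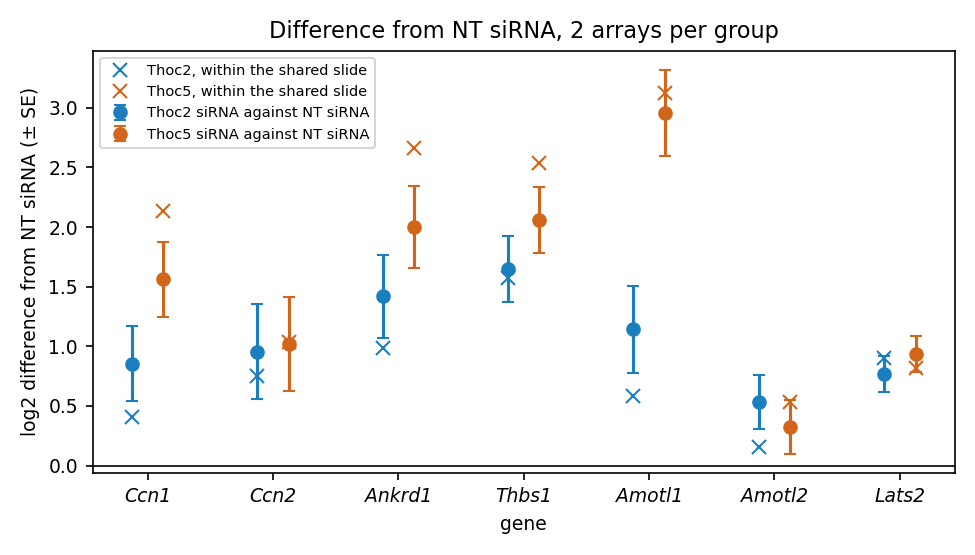
Log2 difference from NT siRNA for the 7 genes with Thoc2 and Thoc5 siRNA (points with the SE of the fit, 2 arrays per group) and within the slide that holds 1 array of each group (crosses). All values are above 0, as the lack of overlap between the groups requires. Over all arrays the Thoc5 siRNA value is the higher for every gene except Amotl2 (0.32 against 0.53), and Ccn2 is nearly level (1.02 against 0.96). Among the crosses, which lie on different slides for each siRNA, Lats2 is the lower with Thoc5 siRNA (0.82 against 0.90) and Amotl2 the higher (0.53 against 0.15).

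Between the siRNAs, 5 of the 7 genes were higher with Thoc5 than with Thoc2 siRNA without overlap (13% of all genes), 1 was lower without overlap (Amotl2; 32.1% of all genes) and Ccn2 overlapped. The median of the 7 differences was 0.41, beside -0.13 for all genes. Amotl1 stood 1.81 ± 0.36 higher, a fold of 3.51, and was the only member with a difference of 1 or more (2.11% of all genes). With normexp background correction the Amotl1 difference was 0.91. Ccn1 was 0.70 ± 0.31 higher and Ankrd1 0.58 ± 0.35 higher. For Thbs1 (0.41 ± 0.28), Lats2 (0.16 ± 0.15), Amotl2 (-0.21 ± 0.22) and Ccn2 (0.06 ± 0.40) the difference was less than 1.5 times its SE. Single arrays set the size of several of these. Without Thoc5 replicate 2 the difference was 0.44 for Ccn1, 0.32 for Ankrd1 and 0.08 for Thbs1, and without Thoc5 replicate 1 it was 0.75 for Thbs1. Without Thoc2 replicate 1 it was 0.08 for Lats2, -0.05 for Amotl2 and 0.50 for Ccn2. Without Thoc2 replicate 2 it was -0.37 for Amotl2 and -0.38 for Ccn2, so the order of the siRNAs for Ccn2 turned with the array left out.

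**Figure D4:**
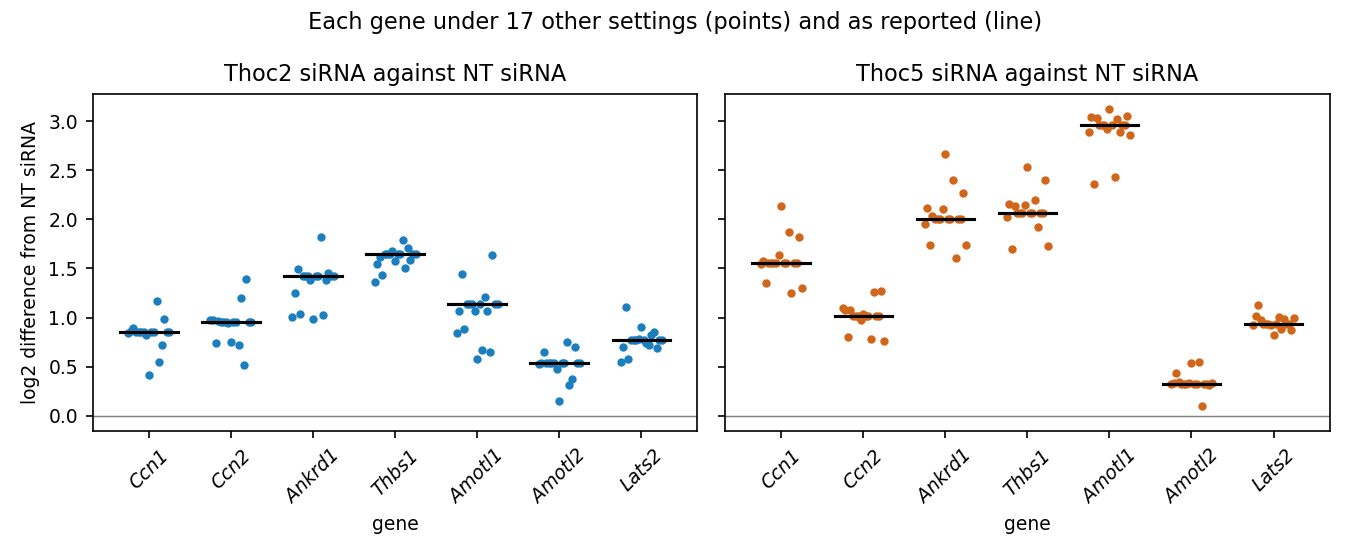
Log2 difference of each gene from NT siRNA as reported (line) and under 17 other settings of normalization, background, filter, slide, probe and replicates (points). All points lie above 0. Those that leave out an array or stay within a slide had to, since the groups did not overlap. The widest ranges for Thoc2 siRNA are those of Amotl1 (0.58 to 1.63), Ccn2 (0.52 to 1.39) and Ankrd1 (0.98 to 1.82). Amotl2 comes nearest to 0 (0.15 with Thoc2 and 0.10 with Thoc5 siRNA).

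The genes whose levels were most like each member over the 6 arrays were taken from the 4799 genes that were well above background on all arrays and spanned at least 1 on the log2 scale. The arrays fall into 3 groups of 2, and every gene shares the arrays and their scaling, so these coefficients describe a shared pattern of groups. Ccn1 was nearest to Bnip2 (Pearson r = 0.997), Rap2b and Ptk7. Ccn2 was nearest to Sp110 (0.998), Thbs2 and Mpped2; Thbs2 encodes thrombospondin 2, a paralog of Thbs1. For Amotl1 the nearest were Plxdc2 (0.996), Map3k20 and Plk2, and for Thbs1 they were Dcbld2 (0.997), Ncstn and Man1a. Ankrd1 was nearest to Gm4836 (0.993) and Ccnl1, Amotl2 to Azin1 (0.994), and Lats2 to LOC381508 (0.998) and Orly. None of the 7 genes was among the 3 nearest of another, and Amotl2, which spanned less than 1, could not be. The 7 genes were still alike: r between them ran from 0.48 (Amotl1 and Amotl2) to 0.98 (Ccn1 and Ankrd1).

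The rest of the pathway was read from 4 lists with the 7 genes left out: the kinase cassette and its upstream regulators, the YAP, TAZ, TEAD and VGLL factors, other YAP targets, and paralogs of the 7 genes. They held 60 genes, 52 of them measured. After Benjamini-Hochberg adjustment in limma no gene on the arrays passed 0.05 in any comparison (0% of all genes), so every statement on these lists is at an unadjusted p under 0.05. At that threshold 8 of the 52 were higher and 4 lower with Thoc2 siRNA, beside 8.06% and 6.46% of all genes (14.5% in either direction). With Thoc5 siRNA 9 were higher and 7 lower, beside 7.39% and 12% of all genes (19.4% in either direction). Between Thoc5 and Thoc2 siRNA 4 were higher and 3 lower, beside 2.18% and 6.99% of all genes (9.17% in either direction). The median difference of the 52 genes was 0.06 with Thoc2 siRNA and 0.02 with Thoc5 siRNA, so the lists as a whole were centred near no difference.

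Among the factors that YAP works through, 8 of 10 were measured; 3 were higher and 2 lower with either siRNA. Yap1 itself read -0.10 on both NT arrays, -0.49 and -0.69 after Thoc2 siRNA, and -0.57 and -0.66 after Thoc5 siRNA. The differences were -0.49 and -0.52 (SE 0.15), with limma adjusted p of 0.283 and 0.185. Its relative TAZ (Wwtr1) lay on the other side of NT, at 0.65 and 0.70 (SE 0.21; adjusted p 0.294 and 0.186). The TEAD genes, which encode the DNA-binding partners, differed in direction. Tead4 read -2.06 and -2.04 after NT siRNA, -1.25 and -1.26 after Thoc2 siRNA, and -0.34 and -0.70 after Thoc5 siRNA, in steps with no overlap. Its difference was 0.80 and 1.53 (SE 0.18; adjusted p 0.234 and 0.101). Tead2 was on the low side with both siRNAs, at -0.84 and -0.91 (SE 0.15; adjusted p 0.222 and 0.107). Tead1 was at -0.77 and 0.03 (SE 0.37) and Tead3, well above background on 4 of 6 arrays, at 0.69 and -0.39 (SE 1.05); neither met the unadjusted threshold. None of Yap1, Wwtr1, Tead2 and Tead4 changed direction against NT under the 4 other scalings, where Yap1 came nearest to 0, at -0.17 with Thoc2 siRNA. Leaving out an array could not turn these genes, since their siRNA arrays did not overlap the NT arrays. Vgll3, a TEAD cofactor, was at 1.03 and 0.62 (SE 0.19; adjusted p 0.222 and 0.195).

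In the kinase cassette and its regulators 24 of 25 genes were measured; 4 were higher and 1 lower with Thoc2 siRNA, and 5 were higher and 2 lower with Thoc5 siRNA. Lats1, the paralog of Lats2, read -2.57 and -2.18 after NT siRNA, -1.71 and -1.91 after Thoc2 siRNA, and -1.41 and -1.39 after Thoc5 siRNA. Both LATS kinases were thus above NT, Lats1 by 0.56 and 0.97 (SE 0.20; adjusted p 0.322 and 0.126). Taok2, a kinase that activates MST, was at 0.75 and 1.00 (SE 0.15; adjusted p 0.231 and 0.106) and Rassf1, a scaffold that binds MST, at 0.37 and 0.95 (SE 0.14; adjusted p 0.341 and 0.101). The Thoc2 siRNA value of Rassf1 was 0.02 at the lowest scaling, and that of Lats1 was 0.37 without NT replicate 1. Wwc1 (KIBRA), an upstream activator of the cascade, was at -0.45 and -0.86 (SE 0.15; adjusted p 0.318 and 0.112). The MST kinases themselves did not meet the unadjusted threshold: Stk3 was at 0.20 and 0.73 (SE 0.82) and Stk4 at -0.22 and -0.30 (SE 0.15). Amot, the third angiomotin gene, was at -0.28 and 0.01 (SE 0.63), its NT arrays lying far apart at 0.48 and -1.06.

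Of 17 other YAP targets 14 were measured; 1 was higher and 1 lower with Thoc2 siRNA, and 2 were higher and 1 lower with Thoc5 siRNA, with medians of 0.16 and 0.27 and 9 of the 14 above 0 with either siRNA. Gadd45a, a stress-induced gene, was at 0.58 and 0.29 (SE 0.18; adjusted p 0.284 and 0.458), and at 0.12 and 0.04 at the lowest scaling; it was the target counted as higher with Thoc2 siRNA. Ptpn14, a phosphatase that binds YAP and is counted in the cassette as well, was at 0.43 and 0.63 (SE 0.17; adjusted p 0.358 and 0.166), with a lowest Thoc5 siRNA value of 0.38 among the scalings. Ccdc80, a matrix protein well above background on 5 arrays, was at -0.09 and 1.32 (SE 0.34; adjusted p 0.917 and 0.157); with normexp its Thoc2 siRNA value was 1.13. Nuak2, a kinase that feeds back on YAP, was on the low side at -0.57 with either siRNA (SE 0.18; adjusted p 0.292 and 0.204), but at 0.15 and 0.11 with normexp background correction. F3, the coagulation tissue factor, was at -0.10 and 0.59 (SE 0.26), with a Thoc2 siRNA value of 0.29 under normexp.

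Among paralogs of the 7 genes 9 of 11 were measured; 1 was higher with Thoc2 siRNA, and 1 was higher and 2 lower with Thoc5 siRNA. The one counted as higher in both was Lats1. Thbs2 was also above NT with both siRNAs, at 0.76 and 0.70 (SE 0.30), but did not meet the unadjusted threshold. Ccn4, of the same matrix family as Ccn1 and Ccn2, was at -0.42 and -0.90 (SE 0.27; adjusted p 0.519 and 0.193) on 5 arrays well above background. Thbs4, a thrombospondin like Thbs1, was at -0.33 and -0.73 (SE 0.22; adjusted p 0.536 and 0.197). Both turned with normexp, Ccn4 to 0.99 and 0.73 and Thbs4 to 0.15 and 0.06.

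**Figure D5:**
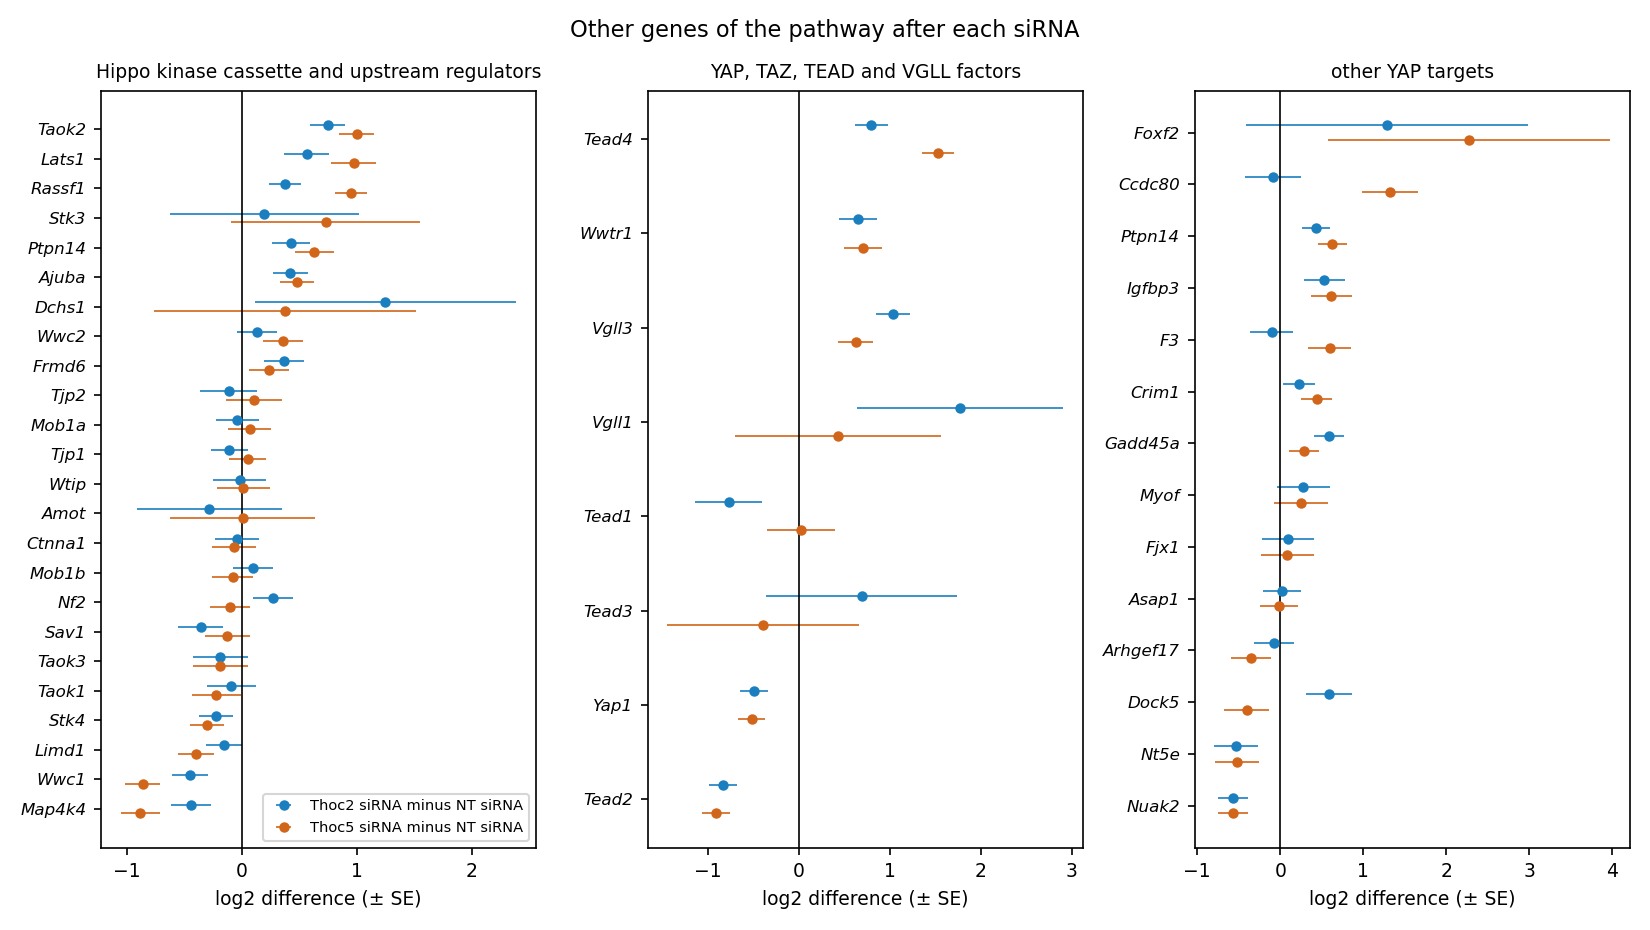
Log2 difference from NT siRNA (x axis; points with the SE of the fit, 2 arrays per group) for the measured genes of 3 pathway lists, ordered by the Thoc5 siRNA value. Tead4, Taok2 and Lats1 lie above 0 and Tead2, Yap1, Wwc1 and Nuak2 below 0 with both siRNAs (Nuak2 turns to 0.15 and 0.11 with normexp), and no gene passes 0.05 after adjustment.

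Some of these calls depended on the variance model and the filter. With limma variances that were robust and followed an intensity trend, 660 genes passed the adjusted threshold for Thoc5 siRNA against NT (3.41% of all genes), among them 6 of the 52 pathway genes. Tead4 (adjusted p 0.0259), Rassf1 (0.0250) and Taok2 (0.0289) were higher, and Tead2 (0.0312), Wwc1 (0.0349) and Map4k4 (-0.88, 0.0349), an upstream kinase, were lower. With probes well above background on all 6 arrays alone, 509 genes passed (3.34%), and Tead4, Rassf1, Taok2 and Tead2 were again among them with adjusted p of 0.0380 to 0.0470. For Thoc2 siRNA against NT these settings passed 4 and 0 genes in all and none of the pathway.

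Several of the 7 genes also respond to SRF, the factor that reads actin dynamics, and its targets were therefore read beside them. All 17 genes of that list were measured. At the unadjusted threshold 1 was higher and 3 lower with Thoc2 siRNA, beside 8.06% and 6.46% of all genes. With Thoc5 siRNA 2 were higher and 3 lower, beside 7.39% and 12% of all genes. Cnn1 (-0.67 and -0.98) and Tpm2 (-0.66 and -0.73), which encode actin-associated proteins, were counted as lower with both siRNAs. The LIM protein gene Fhl1 (-0.41 and -0.77) was counted as lower with Thoc5 siRNA only. Srf itself (-0.40 and 0.04) was counted as lower with Thoc2 siRNA only. Fhl2 was on the high side at 0.55 and 1.70. The limma adjusted p of these genes ran from 0.101 to 0.893, so none passed.

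Ccn1, Ccn2 and Thbs1 are strongly expressed by fibroblasts, and markers of other cell types were read on the same arrays. In bulk RNA a change in the number of cells of a type and a change in RNA per cell cannot be told apart. Of 12 fibroblast and feeder markers 9 were kept and Fap was well above background on no array; their summed scaled signal was 3.21 and 2.55 after NT siRNA, 1.67 and 2.12 after Thoc2 siRNA, and 1.39 and 1.71 after Thoc5 siRNA. Thy1 made up much of this sum on the NT arrays: without it, an alternative chosen after seeing the data, the sums were 1.65 and 1.53, 1.28 and 1.66, and 0.97 and 1.48, and the Thoc2 siRNA arrays overlapped the NT arrays. At the unadjusted threshold 1 marker was higher and 3 lower with Thoc2 siRNA, beside 8.06% and 6.46% of all genes. With Thoc5 siRNA 4 were lower, beside 12% of all genes. The medians were -0.10 and -0.30. Of the 9 markers 4 were above 0 with Thoc2 siRNA and 2 with Thoc5 siRNA. Col1a1 was at -0.97 and -1.37 and Thy1 at -1.56 and -2.01, while Col3a1, well above background on 3 arrays, was at 2.03 and 0.32 (-0.39 with Thoc5 siRNA at the lowest scaling). Loxl1 was at -0.85 and -1.01, and at 0.007 and -0.10 at its weakest scaling. With normexp Col1a1 was at 0.42 and 0.09. The low side thus held with both siRNAs for Thy1 (-0.99 and -1.43 at the weakest scaling) and not for Col1a1 or Loxl1.

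Of 10 trophectoderm markers 9 were measured, and their sum was 16.4 and 15.8 after NT siRNA, 11.9 and 11.6 after Thoc2 siRNA, and 21.3 and 24.4 after Thoc5 siRNA. The sum is of signal before the log and came mostly from the bright probes of Krt18, Krt8 and Tfap2c. Dim markers such as Gata3 and Cdx2 (-4.89 and -4.84 on the first NT array) added little to it. At the unadjusted threshold 2 were higher and 2 lower with Thoc2 siRNA, beside 8.06% and 6.46% of all genes. With Thoc5 siRNA 5 were higher (Gata3, Krt7, Krt8, Krt18 and Hand1), beside 7.39% of all genes. Those counted as higher with Thoc2 siRNA were Gata3, at 2.38 and 1.85 (limma adjusted p 0.207 and 0.101), and Cdx2, at 0.97 and 0.52. Those counted as lower were Krt18, at -0.54 and 0.65, and Tfap2c, at -0.62 and -0.30. Hand1 was at 0.34 and 1.16, and its Thoc2 siRNA value was -0.50 at the lowest scaling. The primitive endoderm sum was 28.5 and 14.8 after NT siRNA, 23.5 and 25 after Thoc2 siRNA, and 41.2 and 22.1 after Thoc5 siRNA. Of its 12 markers 10 were kept, and Ttr was well above background on no array. Sparc, the brightest of them, made up much of the sum. The medians were 0.32 and 0.86, with 6 and 8 of the 10 above 0. No marker met the unadjusted threshold, and replicates of several lay far apart. On the NT arrays Gata6 read 0.78 and -2.35 and Sox17 -0.18 and -3.78. Of the 9 stem cell markers measured, 0 were above 0 with either siRNA, with medians of -0.30 and -0.36. Pou5f1 (-0.88), Sox2 (-0.52) and Nanog (-0.50) were lower with Thoc5 siRNA at the unadjusted threshold, beside 12% of all genes. With Thoc2 siRNA 0 markers met this threshold. The part of these marker shifts in the levels of the 7 genes was not tested.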

How the data were processed

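Each of the 6 arrays gave a scanner file whose processed signal intensity was, per the file headers, background-subtracted and detrended by Agilent Feature Extraction 9.5.3.1; the submitters' processing notes name version 11.0. The deposited table of the series holds log2 values that rank probes as the processed signal does (Spearman 1 on every array); how they were scaled is not stated, and they serve as an alternative. From the intensities, control and outlier-flagged spots were left out, log2 signal was centred on each array's 75th percentile, and a probe was kept if 0.5 or more of its spots were well above background on all arrays of a group. Each gene took its brightest kept probe. Of 41174 probes, 8437 kept the name in the files, as did the 13 of the 7 genes under current symbols; the others were named through RefSeq.

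One limma model (version 3.58.1 under R 4.3.3, lmFit and eBayes, files read with data.table, version 1.17.8) covered all 6 arrays, two-sided, with 3 residual degrees of freedom and Benjamini-Hochberg adjustment over all genes of a comparison. No label states that replicates came from separate cultures. The p-values thus set a difference against the spread between these arrays, which may be technical. The number of arrays limits the precision. The fit was tested on simulated data. The 7 genes, the lists and the rule for named genes were chosen with earlier results of these data known. The rule named all members, the siRNA targets, Yap1, Wwtr1, the TEAD genes, Lats1, Stk3, Stk4 and Amot. It also named up to 3 genes of each list with the smallest unadjusted p under 0.05 per comparison. The brightest cell type markers and the 3 genes nearest to each member were in the rule as well. Map4k4, Gata6, Sox17 and Krt7 were named after their values were seen. Alternatives changed the normalization, background, filter, variance model, slide, replicate block, probe choice and replicates. Protein sequences were not used here.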

Additional observations from a re-analysis of the deposited data

Results flagged for a closer look

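In 5 genes named beside the 7, both arrays of one siRNA lay above the NT mean and both arrays of the other below it. For Ccn3, a matrix protein of the same family as Ccn1 and Ccn2, the log2 difference from NT was 0.71 with Thoc2 siRNA and -0.70 with Thoc5 siRNA, and between the siRNAs it was -1.42 (limma adjusted p = 0.506). Ccn3 was well above background on 5 arrays; its difference between the siRNAs was -1.04 to -0.25 under the other scalings, and its Thoc5 siRNA value was 1.11 with normexp. For the YAP target Dock5 the values were 0.59 and -0.41, a difference of -0.99 (adjusted p = 0.490). Without NT replicate 2 the Thoc5 siRNA value was -0.06, and without NT replicate 1 the Thoc2 siRNA value was 0.25. The keratins of the trophectoderm list ran the other way: Krt18 was at -0.54 and 0.65, a difference of 1.19 (adjusted p = 0.448), and Krt8 at -0.34 and 0.68, a difference of 1.03 (adjusted p = 0.452). Srf was at -0.40 and 0.04, a difference of 0.44 (adjusted p = 0.508), and its Thoc5 siRNA value was -0.0019 without NT replicate 2. None of these differences passed the adjusted threshold. None of the 7 genes had arrays on opposite sides of NT, which follows from the lack of overlap above. Groups of 2 are too small to look for single outlying arrays.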

How the results depend on the processing

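All 7 genes kept their direction against NT siRNA under the 17 alternatives. Leaving out an array or staying within a slide could not turn it, since the groups did not overlap. The variance model, filter and replicate block left their differences unchanged. Only the scalings, the mean over probes and the slide block could have turned a direction. Between the siRNAs, Ccn2 alone changed direction, with the array left out. With normexp background correction the counts at an unadjusted p under 0.05 were 837, 986 and 43 over all genes for Thoc2 against NT, Thoc5 against NT and Thoc5 against Thoc2 siRNA (2814, 3765 and 1776 as reported) and 2, 5 and 1 over the pathway genes (12, 16 and 7). The median of the 7 genes between the siRNAs was 0.079 with normexp and 0.70 in the authors' table (0.41 as reported); within the shared slide their Thoc5 median was 2.13. Adjusted calls were 509 for Thoc5 with the strict filter, and 4 for Thoc2 and 660 for Thoc5 with an intensity trend. Leaving out 1 array gave medians of 0.72 to 1.39, 1.26 to 1.87 and 0.22 to 0.75, the last highest without Thoc5 replicate 1. The all-gene counts ran from 1827 to 2717 (lowest without Thoc2 replicate 1), 2100 to 3632 (2100 without Thoc5 replicate 1, 2209 without replicate 2) and 1033 to 1954 (lowest without Thoc5 replicate 1). The pathway counts ran from 4 to 9, 9 to 15 and 1 to 5, lowest without either Thoc5 array, without either Thoc5 array and without Thoc5 replicate 1; no adjusted call was made. The cause of these changes was not tested.

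Scaling moved the share of higher calls from 55.5% to 39.8% (quantile) and 39.5% (authors' table) or up to 64.9% (normexp) for Thoc2, from 38.0% to 51.9% (normexp) for Thoc5, and from 23.8% to 54.0% (quantile), 41.3% (cyclic loess), 54.5% (authors' table) and 53.5% (normexp) between the siRNAs. Normexp moved the median of all genes to 0.29 and 0.25 for Thoc2 and Thoc5, where the 7 genes had medians of 1.11 and 1.35. Quantile scaling moved it to -0.02 between the siRNAs.

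The numbers were not taken to pair the samples, since the correlations of the deviations of same-numbered arrays were -0.20 (NT and Thoc2), 0.14 (NT and Thoc5) and 0.22 (Thoc2 and Thoc5), not all over 0.1. With the replicate block the counts were 2788, 3279 and 1530 over all genes and 8, 15 and 7 over the pathway genes (4 higher and 4 lower for Thoc2, where 8 and 4 are reported), with no adjusted call. With slide as a random block they were 3384, 4395 and 1843, and 14, 18 and 8. The value within a slide could not be had between the siRNAs, which share no slide. Thoc5 replicate 1, the dimmest array, limits what can be read from dim probes: its lowest level well above background was -4.63, against -5.87 or lower on the others.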
